A study of Mus musculus with 10 samples.

Results

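The alpha-2-macroglobulin family, with its receptor, was described in mouse uteri at gestation day (GD) 3.5, before embryos attach. The 6 members are A2m, A2ml1, Mug1, Mug2 and Pzp, which encode macroglobulins on chromosome 6, and Lrp1, which encodes the receptor that removes them. They were matched through their Ensembl identifiers to the 45706 genes listed in the count table, and all 6 were among the 25146 genes that passed a filter of 1 read per uterus on average. The set was selected from results of the genotype comparison itself, so the difference between genotypes in these 6 genes is given below as a description and not as a test.

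RNA was sequenced from the uteri of 10 adult pregnant females, 5 of each genotype. Control females were Arid1a f/f and carried floxed Arid1a without Cre. Ltf iCre/+ Arid1a f/f females carried the same floxed alleles plus an iCre recombinase placed in the lactoferrin locus, which removes Arid1a from the endometrial epithelium, and are called knockouts below. The authors mention reports of this Cre in neutrophils and other myeloid cells, and could not exclude that loss of Arid1a there contributed. Both groups were of a mixed C57BL/6, 129S6/SvEvTac, 129P2/OlaHsd and 129S1/SvImJ background. The uterus also holds stroma, smooth muscle, vessels and immune cells. Uteri are numbered below as in the sample labels, and no label ties equal numbers in the 2 genotypes to each other.

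Macroglobulins are large secreted protease inhibitors. A protease that cleaves the exposed bait region of the molecule sets off a change of shape that encloses the protease, while an internal thioester bond links the inhibitor to it. The complex then shows a site that is recognised by LRP1, a scavenger receptor of the LDL receptor family that takes it into the cell. A2m is the founding inhibitor, and in rodents Pzp and the murinoglobulins Mug1 and Mug2 are best known as plasma proteins made by the liver. A2ml1 is known from stratified epithelia. In the pregnant uterus, A2m is known as a product of the decidua.

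The sequence around the thioester shows how near these genes are to each other and which of them short reads can separate. The coding sequence was 4425 bases in A2m, 4371 in A2ml1, 4431 in Mug1, 4356 in Mug2 and 4488 in Pzp, against 13638 in Lrp1. The thioester motif was found once in each macroglobulin, each time in exon 24, and was not found in Lrp1. The 63 coding bases around it are printed 5′ to 3′ from the transcripts of the GRCm38 annotation, with the 15 bases of the thioester motif, which hold the codons of the bonded cysteine and glutamine, in capitals. Their positions are chr6:121668078-121668140 on the plus strand for A2m, chr6:128552235-128552297 on the minus strand for A2ml1, chr6:121878943-121879005 on the plus strand for Mug1, chr6:122075177-122075239 on the plus strand for Mug2 and chr6:128491578-128491640 on the minus strand for Pzp.
A2m: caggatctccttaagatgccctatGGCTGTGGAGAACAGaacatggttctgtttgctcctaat
A2ml1: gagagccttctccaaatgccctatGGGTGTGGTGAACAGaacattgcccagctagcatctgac
Mug1: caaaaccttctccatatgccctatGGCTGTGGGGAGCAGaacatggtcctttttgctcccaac
Mug2: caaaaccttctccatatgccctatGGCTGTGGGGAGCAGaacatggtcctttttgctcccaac
Pzp: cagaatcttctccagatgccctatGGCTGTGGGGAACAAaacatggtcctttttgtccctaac

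Mug1 and Mug2 were identical over all 63 bases (0 differed), whereas A2m differed from Mug1 at 13 bases, from Pzp at 11 and from A2ml1 at 20. Over the whole coding sequence, Mug1 and Mug2 were identical at 95.1% of 4350 aligned bases. The next nearest pair was A2m and Mug1, with 69.8% of 4346 aligned bases, and A2m and A2ml1 shared 59.8% of 4221. The reads were pairs of 50 bases, so the transcript of each member was cut into every run of 50 bases and each run was looked for in the transcripts of all other genes. No run of A2m or Lrp1 was found elsewhere (0%), and 0.172% of A2ml1 runs were. By contrast, 32.9% of Mug1 runs and 50.5% of Mug2 runs were shared with another gene, mostly with each other or with the pseudogene Mug-ps1. Of Pzp runs, 4.47% lay in the antisense gene Gm10069, which overlaps it. The aligner counts only reads that it places once, so the counts of Mug1 and Mug2 are uncertain and leave out reads that either gene could have given. The counting setting for strand was not given in the sources used here, and reads of Pzp and Gm10069 in their overlap are equally uncertain.

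Promoters were read from the RefSeq table for GRCm38.p6, which spans 250 bases before to 50 after a start site and held 5 of the 6 members. The entry not held was A2m. The Mug1 promoter (chr6:121838291-121838590, plus strand) and the Mug2 promoter (chr6:122006548-122006847, plus strand) are printed because these neighbours share most of their sequence and yet had different levels. Capitals mark the bases that differ between them or have no partner in the alignment. The A2ml1 promoter (chr6:128581557-128581856, minus strand) is printed because A2ml1 had the largest difference of the 6 members, and its capitals mark the only TATAAA in this window.
Mug1: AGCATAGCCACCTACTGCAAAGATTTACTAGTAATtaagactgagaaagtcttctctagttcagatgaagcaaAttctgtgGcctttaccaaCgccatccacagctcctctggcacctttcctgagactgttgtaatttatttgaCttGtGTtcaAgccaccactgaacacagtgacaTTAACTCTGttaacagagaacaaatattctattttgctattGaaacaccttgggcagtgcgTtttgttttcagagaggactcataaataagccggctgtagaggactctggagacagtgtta
Mug2: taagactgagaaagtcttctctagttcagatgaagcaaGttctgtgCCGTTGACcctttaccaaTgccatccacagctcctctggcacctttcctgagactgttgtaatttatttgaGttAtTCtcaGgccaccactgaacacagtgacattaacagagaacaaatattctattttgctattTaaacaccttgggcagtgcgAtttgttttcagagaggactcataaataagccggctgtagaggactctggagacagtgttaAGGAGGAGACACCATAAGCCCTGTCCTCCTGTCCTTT
A2ml1: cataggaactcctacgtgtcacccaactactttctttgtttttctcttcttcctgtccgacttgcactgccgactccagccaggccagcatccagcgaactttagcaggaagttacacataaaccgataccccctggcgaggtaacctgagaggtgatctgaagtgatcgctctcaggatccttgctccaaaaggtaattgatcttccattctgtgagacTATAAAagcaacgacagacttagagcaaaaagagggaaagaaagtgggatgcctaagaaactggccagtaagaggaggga

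Mug1 and Mug2 promoters were identical at 246 of 256 aligned bases (96.1%), beside insertions of 9 bases in Mug1 and 7 in Mug2 and a shift of the start site between the entries. The TATAAA of A2ml1, chosen for display after the sequence was seen, began 30 bases before the start site, and TATAAA occurred on either strand in 13.6% of the 32851 promoters in the table. It was found in no other member held. The letters TTCNNNGAA of the STAT motif (8.30% of all promoters), TGANTCA of AP-1 (7.81%), TTGCNNAA of C/EBP (10.8%) and GGTCANNNTGACC of the estrogen response element (0.0700%) were also looked for on both strands. Lrp1 had 1 STAT match, 232 bases before its start, and these letters did not occur in the other windows.

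Total counts were 65351817 to 72702411 reads per control uterus and 59296537 to 67990486 per knockout uterus. Across all genes edgeR called 2438, 1305 higher and 1133 lower in knockout uteri. Arid1a itself was 213 ± 22.9 counts per 1000000 (CPM) in controls and 185 ± 15.9 in knockout uteri (SD, n = 5 each; log2 fold change −0.20, edgeR adjusted p = 0.201), in RNA of the whole organ. Ltf, whose locus holds the Cre, was 4.75 ± 3.92 CPM and 714 ± 1194 CPM (7.23, edgeR adjusted p = 0.00920). The first principal component of all tested genes placed controls between −38.5 and −15.5 and knockout uteri 1 and 5 at 49.0 and 65.6, apart from the other 3 of their group (9.36 to 20.7). Values that moved most without uteri 1 and 5 are therefore also given without them. In bulk tissue, fewer cells of a type and less RNA per cell cannot be told apart.

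A2m was the most abundant macroglobulin of the control uterus, and it was higher in every knockout uterus. A2m (ENSMUSG00000030111, chr6:121635376-121679227) measured 41.4, 45.8, 39.9, 48.3 and 21.2 CPM in control uteri 1 to 5. In knockout uteri 1 to 5 it measured 399, 348, 130, 101 and 392 CPM. The lowest of these was above the highest control, and uteri 1, 2 and 5 were far above uteri 3 and 4. The means were 39.3 ± 10.6 and 274 ± 146 CPM (SD, n = 5 each), a ratio of 6.97, and the fitted log2 fold change was 2.80 ± 0.40 (SE). The count reached 27106 reads in 1 uterus, so counting error was small beside the spread between animals.

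A2ml1 differed most. This macroglobulin-like inhibitor (ENSMUSG00000047228, chr6:128539821-128581608) measured 0.266, 0.0836, 0.157, 0.355 and 0.215 CPM in the controls, which were 6 to 25 reads a uterus. In knockout uteri 1 to 5 it measured 47.1, 1.84, 13.8, 21.8 and 19.5 CPM, or 109 to 3001 reads. Every value was above the controls, but uterus 2 stood well below the other 4. The means were 0.215 ± 0.103 and 20.8 ± 16.6 CPM (SD, n = 5 each), a ratio of 96.5, and the fitted log2 fold change was 6.58 ± 0.78 (SE). Uterus 2, lowest for A2ml1, was among the 3 highest for A2m.

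Mug1, a murinoglobulin that acts as a single chain rather than as an assembly of subunits, was higher mainly in knockout uteri 1 and 5. Mug1 (ENSMUSG00000059908, chr6:121838541-121889057) measured 1.27, 1.10, 1.16, 0.923 and 0.689 CPM in controls and 17.9, 4.71, 1.504, 1.84 and 16.2 CPM in knockout uteri. The genotypes did not overlap, although uteri 3 and 4 were close to the highest control. The means were 1.03 ± 0.228 and 8.42 ± 7.97 CPM (SD, n = 5 each), and the fitted log2 fold change was 3.03 ± 0.67 (SE). Without uteri 1 and 5 the log2 fold change of Mug1 was 1.38 ± 0.36 (SE), and its adjusted p rose above the threshold without control uterus 2.

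Its near copy Mug2 did not share this difference. Mug2 (ENSMUSG00000030131, chr6:122006761-122085965) had 10, 22, 10, 8 and 8 reads in controls and 3, 1, 10, 4 and 6 in knockout uteri. The ranges overlapped through uterus 3, and the log2 fold change was −1.14 ± 0.54 (SE). The pseudogene Mug-ps1, which lies beyond Mug2 and shares more runs of 50 bases with it than any other gene did, had 5, 15, 5, 5 and 5 reads in controls and 1, 2, 4, 0 and 0 in the other genotype. The ratio of Mug1 to Mug2 per kilobase was 2.85 to 7.22 in controls and 7.30 to 301 in knockout uteri, where it rested on few Mug2 reads.

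Pzp, the pregnancy zone protein gene, was at the limit of detection. Pzp (ENSMUSG00000030359, chr6:128483567-128526720) had 0, 0, 0, 4 and 1 reads in controls and 20, 1, 0, 3 and 17 in knockout uteri. The 2 uteri with most reads were again 1 and 5, and the ranges overlapped. The log2 fold change was 2.96 ± 1.23 (SE), and without uteri 1 and 5 it was 0.48 ± 1.36 (SE). A count of 0 allows up to 3 reads, for counting error only, and a difference in Pzp was not resolved at this depth. The overlapping antisense gene Gm10069 had 1431 reads over the 10 uteri, far more than Pzp.

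Lrp1, the receptor for macroglobulin and protease complexes, stayed within the range of the controls in 1 of 5 uteri and left it in both directions in the others. Lrp1 (ENSMUSG00000040249, chr10:127538161-127621148) measured 416, 384, 421, 306 and 339 CPM in controls and 377, 282, 300, 282 and 490 CPM in knockout uteri. In the latter group 3 uteri were below every control and uterus 5 was above every control. The means were 373 ± 49.8 and 346 ± 89.6 CPM (SD, n = 5 each), and the fitted log2 fold change was −0.11 ± 0.16 (SE), or −0.37 ± 0.12 without uteri 1 and 5.

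**Figure D1:**
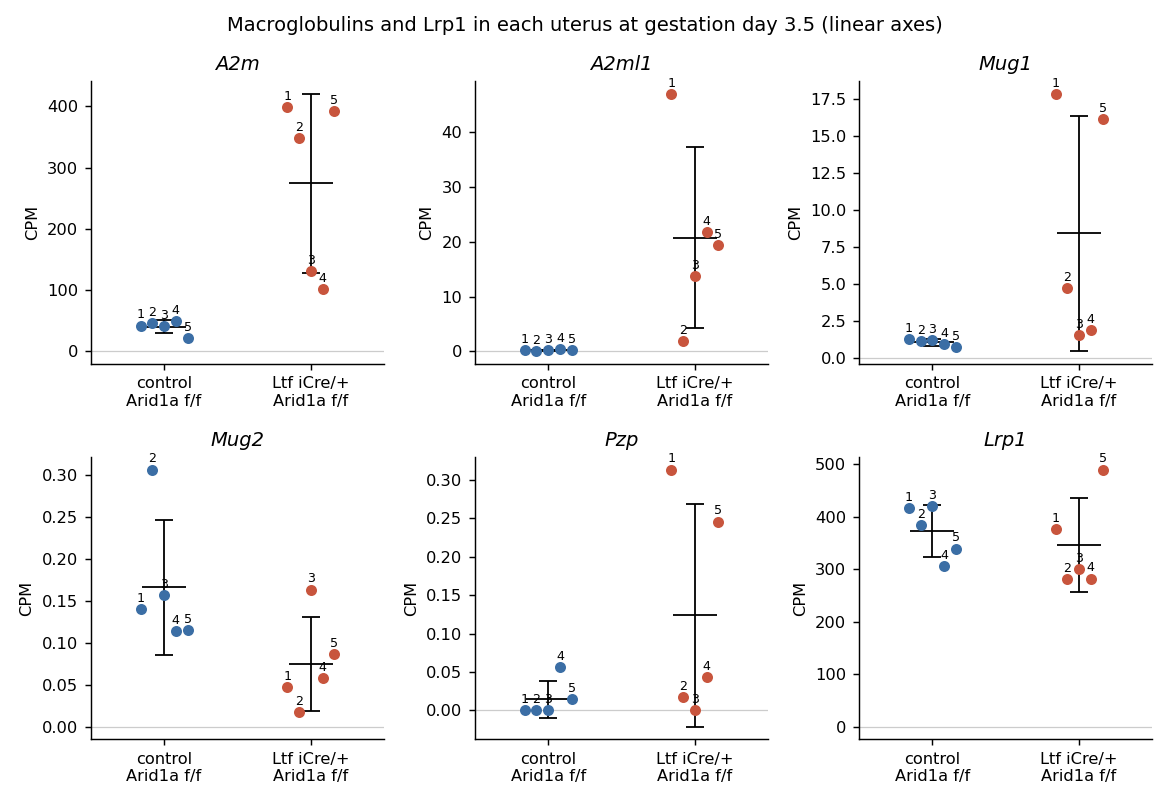
Each panel plots 1 gene on a linear axis in counts per 1000000 (CPM), with 1 point per uterus, numbered as in the labels, and bars for the mean and SD of 5 uteri. A2m, A2ml1 and Mug1 sit above every control in all 5 Ltf iCre/+ Arid1a f/f uteri, while Mug2, Pzp and Lrp1 overlap.

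With an adjusted p under 0.05 in edgeR as the rule, 3 of the 6 members were called, namely A2m, A2ml1 and Mug1, all of them higher. Over all tested genes 9.7% were called, 5.19% higher and 4.51% lower. The same 3 members had genotype ranges that did not overlap, which held for 10.7% of all tested genes. Since the members were selected on this contrast, nothing is read from these shares. Among the members not called, Mug2 and Pzp had wide errors from low counts while Lrp1 had a small difference with many counts.

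Levels of different genes were compared per kilobase of exon (RPKM, the CPM divided by the exon length in kilobases). In controls the order was Lrp1 at 21.1 ± 2.81 RPKM, A2m at 5.60 ± 1.52, Mug1 at 0.178 ± 0.0396, Mug2 at 0.0363 ± 0.0176, A2ml1 at 0.0278 ± 0.0133 and Pzp at 0.00222 (n = 5). Mug2 and A2ml1 overlapped and their order was not resolved, while the other neighbours in the order did not overlap. In knockout uteri A2m averaged 39.0 ± 20.9 RPKM and Lrp1 19.5 ± 5.05 RPKM (n = 5 each). A2ml1 averaged 2.68 ± 2.14 RPKM and Mug1 1.46 ± 1.38 RPKM, and these overlapped each other. Pzp at 0.0193 and Mug2 at 0.0163 RPKM remained near the bottom of the scale.

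**Figure D2:**
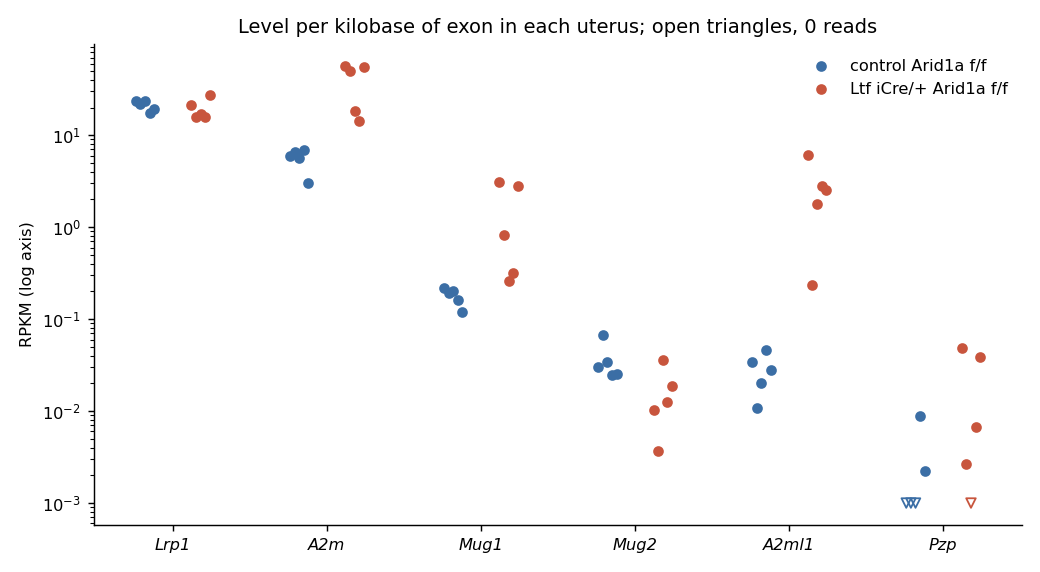
Levels per kilobase of exon (RPKM, log axis) are plotted for 1 point per uterus, blue for 5 control Arid1a f/f and red for 5 Ltf iCre/+ Arid1a f/f uteri, with open triangles for uteri without a read. A2m lies below Lrp1 in controls (5.60 against 21.1 RPKM) and above it on average in Ltf iCre/+ Arid1a f/f uteri (39.0 against 19.5 RPKM).

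The ratio of A2m to Lrp1 per kilobase put inhibitor and receptor side by side in each animal. It was 0.251, 0.301, 0.239, 0.398 and 0.158 in control uteri and 2.67, 3.12, 1.10, 0.899 and 2.02 in knockout uteri. With the union of exons as length, A2m was thus lower than Lrp1 per kilobase in every control and higher in 4 of 5 uteri of the other genotype. The remaining uterus (0.899) was near equality, and its side depends on the length used. The 5 macroglobulins summed to 5.84 ± 1.55 RPKM in controls and 43.2 ± 22.8 RPKM in knockout uteri (SD, n = 5 each).

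A2m made up most of this sum in both genotypes, 94.5% to 96.6% in controls and 82.0% to 97.9% in knockout uteri. The share of A2ml1 was 0.159% to 0.869% in controls. In knockout uteri 1 to 5 it was 9.19%, 0.469%, 8.63%, 16.1% and 4.10%, above the controls in 4 uteri and within their range in uterus 2. Mug1 made up 2.25% to 3.74% in controls and 1.26% to 4.69% in the other genotype, so its share overlapped although its level did not.

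The members did not differ as 1 block across the knockout animals. Relative to the control mean, A2m was 10.1, 8.86, 3.31, 2.56 and 9.98 times as high in uteri 1 to 5. Mug1 was likewise highest in uteri 1 and 5 and lowest in uteri 3 and 4, at 17.4, 4.58, 1.46, 1.79 and 15.7 times. Its uterus 2 lay between these pairs and well below uteri 1 and 5. A2ml1 took another course, at 219, 8.56, 64.1, 101 and 90.4 times. Uterus 2 joined uteri 1 and 5 for A2m but was lowest for A2ml1, and uterus 4 was lowest for A2m but second for A2ml1.

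**Figure D3:**
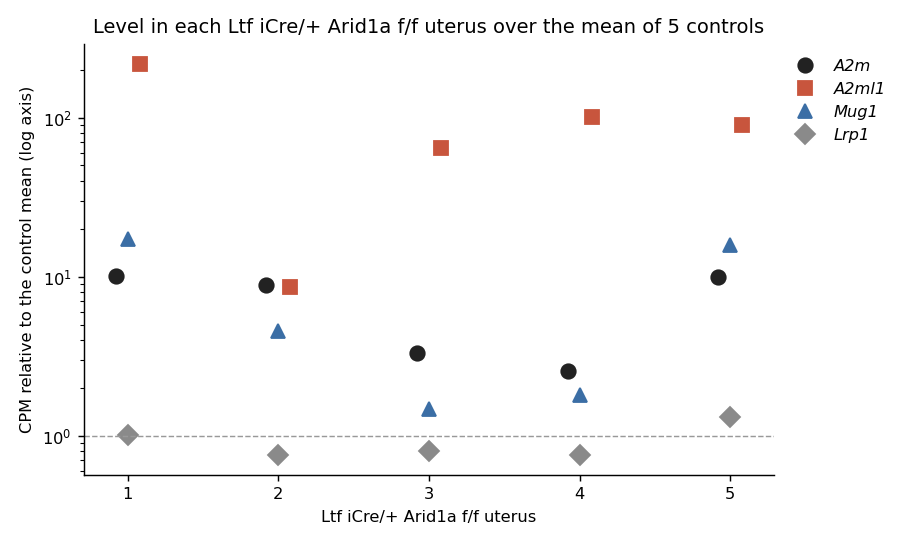
Each point is the CPM of 1 gene in 1 Ltf iCre/+ Arid1a f/f uterus over the mean of the 5 controls, on a log axis, and the dashed line marks the control mean. A2m and Mug1 are high in uteri 1 and 5 and low in uteri 3 and 4, whereas A2ml1 ranges from 8.56 times in uterus 2 to 219 times in uterus 1 and Lrp1 stays between 0.754 and 1.31 times.

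The same was described over all 10 uteri with each genotype mean removed, on log2 CPM, where the points share libraries and their depth. A2m and Mug1 deviated together with a Pearson r of 0.86, or 0.71 without the 2 uteri farthest from the median of A2m. A2m and A2ml1 had an r of −0.10, and 0.03 without these uteri. Mug1 and Lrp1 had an r of 0.77. The genes whose deviations were most like A2m, among genes with a mean of 100 reads or more, were Asna1 (r = 0.95), Twsg1 (0.95), Ptpn12 (0.94), Tgoln1 (0.94) and Rala (0.94). None of these 5 was called in the genotype comparison, with edgeR adjusted p from 0.0507 for Tgoln1 to 0.713 for Twsg1. The genes most like Lrp1 were Abhd2 (r = 0.98), Smurf1 (0.97), Gfer (0.96), N4bp1 (0.96) and Mapk6 (0.96). Of the 5 genes named for A2m, ranking by Spearman's rho shared 1, and of those for Lrp1 it shared 0, so both lists depend on the measure.

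Markers of the uterine layers were present throughout, with 8 stromal markers summing to 14645 to 21724 CPM in controls and 12090 to 21779 in knockouts and 7 myometrial ones to 6319 to 11147 and 3248 to 8851 CPM. Of the stromal markers edgeR called 0 higher and 2 lower, Dcn (−0.65, edgeR adjusted p = 0.0109) and Vim (−0.94, edgeR adjusted p = 0.0139), and DESeq2 called 3. Of the myometrial markers edgeR called 0 and DESeq2 1. Marker lists of other cell types differed in how far they moved with genotype. The 10 epithelial markers summed to 648 to 854 CPM in controls and 948 to 1966 in knockout uteri, with 5 higher and 1 lower by edgeR, and Prss28 and Prss29 were under 1 CPM in every uterus. The 7 endothelial markers summed to 801 to 1096 CPM and 397 to 541 CPM, with 6 lower, and the 5 pericyte markers to 911 to 1235 CPM and 414 to 625 CPM, with 3 lower. The 8 macrophage markers summed to 162 to 337 CPM and to 285 to 703 CPM, ranges that overlap, and edgeR called 0 of them (3 had an unadjusted p under 0.05, and DESeq2 called 1). The 6 neutrophil markers summed to 5.86 to 23.1 CPM in controls and to 15.6, 12.1, 12.8, 22.9 and 855 CPM in knockout uteri 1 to 5, so that 4 of 5 lay within the control range, and Ly6g was called higher. The ovary and oviduct markers summed to 23.8 to 42.8 CPM in controls and 11.5 to 17.7 CPM in knockouts, with Ovgp1 called lower, and of 5 mesothelial markers (180 to 232 CPM and 170 to 286 CPM) Msln and Upk1b were called higher. The 6 adipose markers summed to 22.1 to 29.2 CPM in controls and 18.4 to 26.4 CPM in knockouts. Of these edgeR called 0 and DESeq2 1, and 5 had an unadjusted edgeR p under 0.05. Adipoq had 1 read in all controls and 78 in all knockouts, and Cfd 22 and 201. Only Lipe was lower, with means of 26.7 and 21.8 CPM. The part of these cell types in the macroglobulin differences was not tested. For the liver, the main source of plasma macroglobulins, Alb, Apoa1, Apoa2, Cyp2e1 and Cps1 were under 1 CPM in every uterus and the 7 markers found summed to 4.39 to 8.61 CPM in controls and 1.11 to 4.37 CPM in knockout uteri. Cyp2e1 was called higher on 1 read in all controls and 73 in all knockouts. Ttr was lower, at 1.13 to 4.94 CPM in controls and 0.0157 to 1.05 CPM in knockouts (edgeR adjusted p = 0.0600, DESeq2 adjusted p = 0.0243). Without uteri 1 and 5 the log2 fold change was 2.29 ± 0.36 for A2m and 5.84 ± 0.67 for A2ml1 (SE).

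Genes around the family were taken from lists of relatives, partners and targets and tested by edgeR across all 25146 genes, whose median log2 fold change was 0.03 with 52.7% positive. Of all these genes 5.19% were called higher and 4.51% lower, and the counts of the lists were not tested against these shares. The relatives in the thioester protein family are complement C3, C4a and C4b, Hc (complement C5, which belongs to the family but lacks the bond) and the membrane protein Cd109. Of these 5, Cd109 fell, from 53.9 ± 9.32 to 18.8 ± 5.71 CPM (n = 5 each; log2 fold change −1.52 ± 0.20 SE, edgeR adjusted p = 0.00190), in all 5 knockout uteri below every control. The list median was 0.13, but −0.18 without knockout uterus 5 and −0.51 without knockout uteri 1 and 5. Cd109 thus moved in the opposite direction to A2m.

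Of 11 other receptors and sorting receptors of the family of Lrp1 analysed here, 1 rose and 2 fell, with a list median of −0.19. The largest difference of the list was in Lrp2, named after its values were seen, which was not called (−2.34 ± 0.99 SE, edgeR adjusted p = 0.161). It was 502 to 833 CPM in controls and 2.40 to 259 CPM in knockout uteri, in all 5 below every control. Lrp8, a reelin receptor, rose from 5.28 ± 1.27 to 18.4 ± 15.5 CPM (1.80 ± 0.46 SE, edgeR adjusted p = 0.0322). Sorl1, a sorting receptor, fell (−1.33 ± 0.18 SE, edgeR adjusted p = 0.00221), as did Vldlr (−0.59 ± 0.14 SE, edgeR adjusted p = 0.0222). Lrp8 lost its call without any 1 of the 5 controls (edgeR adjusted p 0.0585 to 0.0786), and Vldlr without control uterus 5 (0.0505). The log2 fold change of Lrp8 was 1.17 without knockout uterus 1 and 0.73 without uteri 1 and 5.

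Of 22 partners and other ligands of LRP1, 1 rose and 1 fell, with a median of −0.06. Calr, calreticulin, which can act as a co-receptor with LRP1, rose from 904 ± 86.3 to 1254 ± 203 CPM (0.47 ± 0.13 SE, edgeR adjusted p = 0.0399). This call was kept in 1 of 10 fits that each left out 1 uterus, that without uterus 4 of the knockouts, and the adjusted p in the others was 0.0517 to 0.0886, and 0.0903 without uteri 1 and 5. Ccn2, a connective tissue growth factor that binds LRP1, fell from 78.4 ± 17.1 to 31.7 ± 15.6 CPM (−1.31 ± 0.27 SE, edgeR adjusted p = 0.0146), and kept its call in all 10 of these fits. DESeq2 called 5 genes of this list.

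The list of target proteases, written from general knowledge as possible targets of macroglobulins, held 25 tested genes, of which 3 rose, with a median of 0.21. Whether macroglobulins trap each of these proteases, the mast cell tryptases among them, was not tested. Without uterus 5 of the knockouts 2 rose and 2 fell with a median of −0.07, and without uteri 1 and 5, 1 rose and 2 fell with a median of 0.01. The count also depended on the controls. Without control uterus 1, 2, 3 or 5, 1 rose and 0 fell, with medians of 0.10 to 0.28. Without control uterus 4, 2 rose and 0 fell, with a median of 0.09. DESeq2 called 2 higher and 2 lower. Ctsb, cathepsin B, rose from 847 ± 79.6 to 1173 ± 83.5 CPM (0.47 ± 0.10 SE, edgeR adjusted p = 0.0158) and kept its call in all 10 fits that left out 1 uterus. Mmp7, matrilysin, was 0.042 to 0.167 CPM in controls and 0.135 to 202 CPM in knockout uteri (8.31 ± 2.20 SE, edgeR adjusted p = 0.0371). Its log2 fold change was 2.29 without uterus 5 and 1.87 without uteri 1 and 5 (edgeR adjusted p = 0.0803), and its call was lost without any 1 control (adjusted p 0.0790 to 0.09004). Tpsab1, a mast cell tryptase, was under 1 CPM in every uterus (4.08 ± 1.02 SE, edgeR adjusted p = 0.0298) and lost its call without control uterus 1, 2, 3 or 5 or uterus 1 or 5 of the knockouts (0.0524 to 0.0719), or without both of these knockouts (0.141).

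Of 26 other protease inhibitors, 2 rose and 7 fell, with a median of −0.24. The largest differences by rule were in Serpina1a (−4.64 ± 1.16 SE, edgeR adjusted p = 0.0292) and Serpina1c (−4.52 ± 1.05 SE, edgeR adjusted p = 0.0228), copies of alpha-1-antitrypsin that were under 1 CPM in every uterus. Ambp, the precursor of bikunin, was also under 1 CPM throughout (4.22 ± 0.95 SE, edgeR adjusted p = 0.0190). Serpina3n, an inhibitor of the antichymotrypsin group, fell from 8.91 ± 6.35 to 1.27 ± 0.434 CPM (−2.81 ± 0.63 SE, edgeR adjusted p = 0.0187) and held in all 10 fits that left out 1 uterus. Serpina1a lost its call in 8 of these fits (up to 0.0665, without control uterus 3), Serpina1c without control uterus 2 or 3 (0.0568 and 0.0572) and Ambp without control uterus 2 (0.0527). Without knockout uteri 1 and 5, Serpina1a (0.0707), Serpina1c (0.0669) and Ambp (0.103, log2 fold change 2.77) were not called by edgeR. The other Serpina1 copies were added after their values were seen. Serpina1b fell (−2.55 ± 0.58 SE, edgeR adjusted p = 0.0202), and Serpina1d was not called (0.23 ± 0.76 SE). Serpina1e was 0.0470 to 66.6 CPM in controls and 122 to 221 CPM in knockout uteri. It was thus above every control in all 5 knockouts, but was not called (3.61 ± 1.56 SE, edgeR adjusted p = 0.167). The Serpina1 copies are near-identical, and their separate counts are uncertain. The other called inhibitors, also named after their values were seen, were more abundant. In controls and knockouts the means were 270 and 143 CPM for Itih5, 472 and 364 for Timp2 and 383 and 277 for Timp3. Wfdc2 rose, with means of 133 and 295 CPM. For these genes, fits that left out 1 uterus are not given.

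A2m is a classical acute phase gene of the rat liver, induced by IL-6 family cytokines through gp130 and STAT3. Of 24 tested genes of this route and of the acute phase, 3 rose and 3 fell, with a median of −0.01. The receptor chain Il6st (gp130) fell from 968 ± 102 to 533 ± 64.5 CPM (−0.86 ± 0.11 SE, edgeR adjusted p = 0.00185). Lcn2, lipocalin 2, rose (8.60 ± 1.79 SE, edgeR adjusted p = 0.0139), from 0.838 to 1.71 CPM in controls to 2.35 to 1659 CPM in knockout uteri, with a log2 fold change of 3.46 without uteri 1 and 5. Hp, haptoglobin, rose from 3.83 ± 0.652 to 19.3 ± 9.76 CPM (2.34 ± 0.35 SE, edgeR adjusted p = 0.00293). Saa3, a serum amyloid A gene, rose as well (4.90 ± 1.14 SE, edgeR adjusted p = 0.0222), but lost its call without control uterus 1, 2, 3 or 4 (0.0515 to 0.0606), and its log2 fold change was 2.47 without knockout uterus 5 and 2.68 without uteri 1 and 5. The list median was −0.35 without knockout uterus 5, and without uteri 1 and 5, 3 genes rose and 7 fell with a median of −0.19.

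Of 17 tested growth factors and cytokines that macroglobulins can carry, 1 rose and 1 fell, with a median of 0.25, or 0.13 without knockout uterus 5 and 0.04 without uteri 1 and 5. Tnf was 0.583 ± 0.170 CPM in controls and 4.96 ± 6.44 CPM in knockout uteri (3.09 ± 0.71 SE, edgeR adjusted p = 0.0216), and lost its call without control uterus 2, 4 or 5 (0.0546 to 0.0592). Its log2 fold change was 1.86 without knockout uterus 5 and 2.04 without uteri 1 and 5. Tgfb2, a transforming growth factor, fell from 57.3 ± 6.02 to 36.1 ± 7.82 CPM (−0.67 ± 0.14 SE, edgeR adjusted p = 0.0166) and held in all 10 fits that left out 1 uterus.

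**Figure D4:**
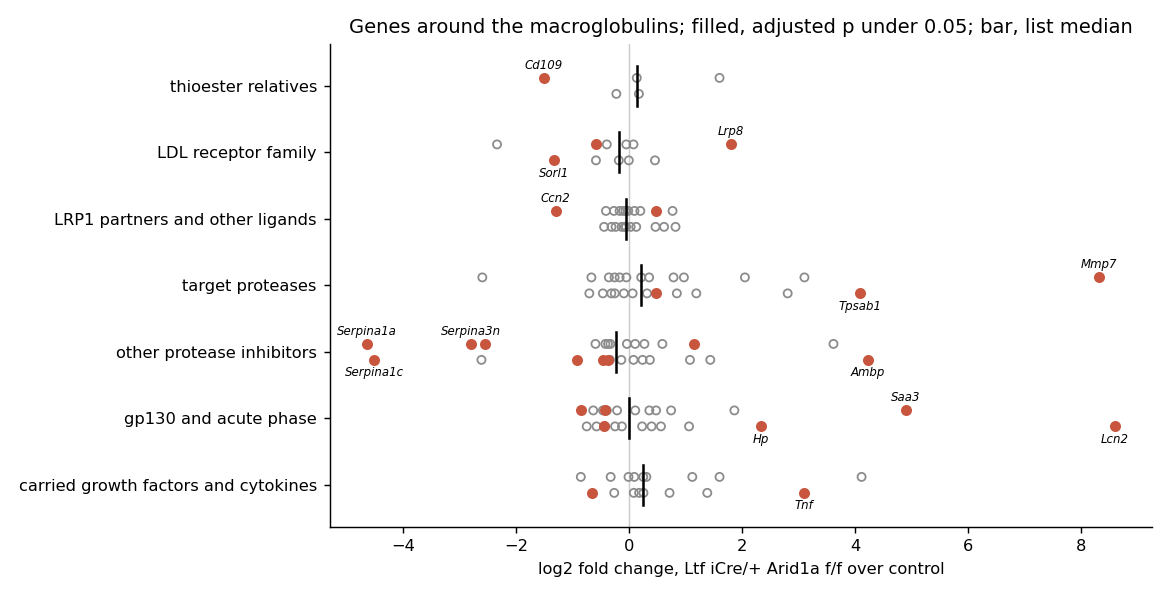
Log2 fold changes of Ltf iCre/+ Arid1a f/f over control are plotted for every tested gene of 7 lists, with filled points for an edgeR adjusted p under 0.05, open points for the rest and a black bar at each list median. With all uteri, list medians lie between −0.24 and 0.25, and called genes lie on both sides of 0 in all lists but the thioester relatives and the target proteases.

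The chromosomal surroundings of the members were examined for genes that moved beside them. Within 500 kb of a member, 99 other genes were tested, of which edgeR called 14, or 14.1%, 6 higher and 8 lower. Over all tested genes 9.7% were called, and the difference between these shares was not tested. Of the 8 neighbours of A2m and the 6 of Mug1, edgeR called 0 (4 and 5 had an unadjusted p under 0.05, and DESeq2 called 2 of each). Around Mug2, Mfap5, a microfibril protein, fell (−0.63, edgeR adjusted p = 0.0106). Around A2ml1 and Pzp, Nrip2 fell (−0.81, edgeR adjusted p = 0.0133), while the pseudogene Clec2f (2.37, edgeR adjusted p = 0.00697) and the natural killer cell receptor gene Klrb1b (1.20, edgeR adjusted p = 0.0275) rose. Around Lrp1, 10 of 52 were called. B4galnt1, a ganglioside synthase, Mars, a tRNA synthetase, Cdk4, a cell cycle kinase, and Arhgap9 rose, by 0.31 to 1.29 on the log2 scale. R3hdm2, Ndufa4l2, Nxph4, Myo1a, Tac2 and Rdh1 had log2 fold changes of −2.59 to −0.26. Of the 14 genes, B4galnt1, Mars, Ndufa4l2, Mfap5, Nrip2 and Clec2f kept their calls in all 10 fits that left out 1 uterus, and the other 8 each lost theirs without control uterus 3 (edgeR adjusted p 0.0633 to 0.0966), among others. Without knockout uteri 1 and 5, R3hdm2, Nxph4, Myo1a and Tac2 were not called (0.0642 to 0.109).

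**Figure D5:**
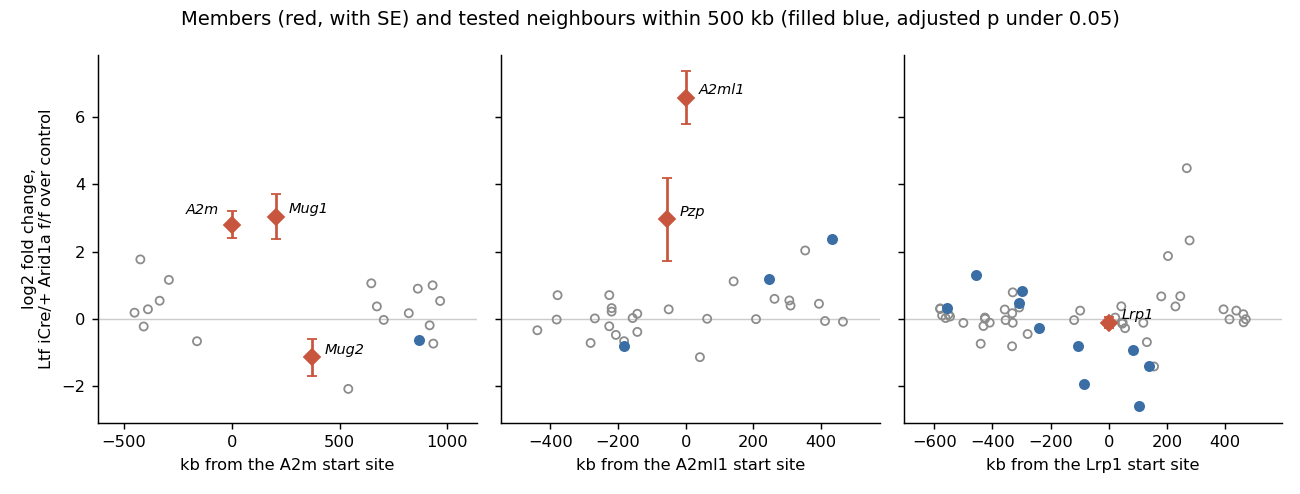
Log2 fold changes are plotted against distance in kb from the start site of A2m, A2ml1 or Lrp1, with members in red (bars, SE), called neighbours in filled blue and other tested neighbours open. A2m and Mug1 stand at 2.80 and 3.03 and A2ml1 at 6.58. The called neighbours around A2ml1, Pzp and Mug2 lie between −0.81 and 2.37, and 0 neighbours of A2m or Mug1 were called.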

How the data were processed

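The mice were of the 2 genotypes described above, and the table held 1 column per uterus. The authors trimmed 50-base read pairs with cutadapt 1.18 and Trim Galore 0.6.4, aligned them to GRCm38 with STAR 2.7.3a and deposited its raw counts per gene, in which reads that align to several places are not counted. The annotation release and strand setting were not given in the sources used here. The 45706 gene identifiers were named from GENCODE (45706 matched). Genes with at least 1 count per sample on average (25146) were tested with edgeR 4.0.16 (quasi-likelihood, TMM factors, genotype only), with Benjamini-Hochberg adjustment over all of them and a threshold of 0.05. The authors used DESeq2 for their own comparison, and DESeq2 1.42.0 was run here as an alternative. CPM used TMM-scaled library sizes, RPKM the union of exons, and likeness log2 CPM with a prior count of 2. Each list named at most its 4 called genes of largest absolute log2 fold change, and likeness named 5 genes per member. Lrp2, further Serpina1 copies, Itih5, Timp2, Timp3 and Wfdc2 were added after their values were seen. One item of the lists is not reported here. The members and lists were chosen with earlier results of these data known. The labels give separate mice, but cages and litters were not given. The scripts were tested on simulated data. Depth limited Mug2 (at most 22 reads a uterus) and Pzp (at most 20).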

Additional observations from a re-analysis of the deposited data

Results flagged for a closer look

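The control value of A2m in uterus 5 (21.2 CPM) stood apart from the other 4 controls (39.9 to 48.3 CPM), its gap being 0.770 of the whole control range on log2 CPM against a limit of 0.71 for 5 samples. Values of 6 members in 2 genotypes were looked at, 12 groups in all, of which this was the 1 flagged, and chance flags about 5% of groups. Without this uterus the control mean of A2m was 6.24 RPKM, beside 5.60 with it, and the same control held the lowest Mug1 value (0.689 CPM).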

How the results depend on the processing

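DESeq2 called 4062 genes in place of 2438, 5 in place of 2 LRP1 partners and 4 in place of 2 carried factors. Same-numbered uteri of the 2 genotypes had correlations of −0.16 to 0.22 in their deviations, over 0.1 in 1 of 5. For 1 of 5 numbers this was above the best correlation with another number. So few correlations cannot decide whether equal numbers are pairs. The paper states that littermates were compared where possible, but the labels do not identify them. With the replicate number as a block, 1704 genes were called, with 1 LRP1 partner, 1 carried factor and 8 neighbours, and 2 members, without Mug1. Chosen after seeing the data, leaving out uteri 1 and 5 of Ltf iCre/+ Arid1a f/f gave 5 LRP1 partners, 10 acute phase genes, and log2 fold changes of 1.38 for Mug1 and 0.48 for Pzp.

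Leaving out each uterus in turn gave 1204 genes (without control uterus 2) to 2381, 1 thioester relative each time, 1 (without control uterus 5) to 4 LDL receptor family genes, 1 to 2 LRP1 partners, 1 to 4 proteases, 4 to 9 other inhibitors, 4 to 9 acute phase genes, 1 to 4 carried factors and 6 to 14 neighbours. The log2 fold changes then ranged from 2.62 to 3.01 for A2m, 6.03 to 6.87 for A2ml1, 2.55 to 3.30 for Mug1, −1.62 to −0.81 for Mug2, 2.30 to 4.53 for Pzp and −0.27 to −0.04 for Lrp1. Control levels ranged from 5.28 to 6.24 RPKM for A2m, 0.0233 to 0.0320 for A2ml1, 0.168 to 0.193 for Mug1, 0.0287 to 0.0392 for Mug2, 0.000560 to 0.00277 for Pzp and 20.4 to 22.02 for Lrp1. With the longest transcript as length they were 8.54 RPKM for A2m, 0.0459 for A2ml1, 0.221 for Mug1 and 25.1 for Lrp1.

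Of the 5 genes most like A2m, Spearman's rho shared 1, deviations without removing the genotype mean 0 and leaving out the 2 farthest uteri 2. For Lrp1 these were 0, 2 and 2. No member changed direction under any alternative run. The causes of these changes were not tested. Depth limited Mug2 and Pzp, whose control sums were 58 and 5 reads.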
